A study of Mus musculus with 4 samples.

Results

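The cathepsins are the acid proteases of the lysosome. The group described here was fixed by name, as 10 genes that encode lysosomal cathepsins (Ctsa, Ctsb, Ctsc, Ctsd, Ctsf, Ctsh, Ctsk, Ctsl, Ctss and Ctsz), and all 10 were present among the 17194 gene symbols of the deposited count table. The RNA was that of primary macrophages derived from mouse bone marrow and treated for 2 days with RANKL, which induces them to become bone-resorbing osteoclasts. By their labels, 2 libraries were siControl and 2 were siHells, an siRNA against the chromatin remodeller Hells, and all 4 had received RANKL. The labels give no strain, age or number of animals, and do not say that the libraries of a group came from separate cultures, so the spread that p-values rest on is that between these samples and may be technical.

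Cathepsins are made as inactive precursors, tagged with mannose 6-phosphate in the Golgi, carried to acidic compartments and activated there by removal of a propeptide. Most are papain-like cysteine proteases (Ctsb, Ctsc, Ctsf, Ctsh, Ctsk, Ctsl, Ctss and Ctsz), Ctsd is an aspartic protease and Ctsa is a serine carboxypeptidase. Macrophages use them to degrade engulfed and internal protein and to prepare peptides for presentation. Osteoclasts in addition secrete cathepsin K into the resorption pit, where it cuts the collagen of bone.

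Library totals ran from 48873635 to 55642819 counts. Hells itself was 1.99-fold lower in siHells, where its CPM (counts scaled to library size and TMM-normalised) averaged 14.9 ± 0.390, compared with 29.7 ± 0.459 for siControl (SD, n = 2 each). Macrophage identity was checked with 10 markers, all of them detected, and their summed level was 16770 and 16900 CPM in siControl and 27680 and 26880 CPM in siHells. Of these markers 9 rose and 1, Cd68, fell (log2 ratio -0.28, adjusted p = 6.99e-07, edgeR). The log2 ratio given for a gene is its fitted log2 fold change, siHells over siControl. Lyz2 made up most of the sum, with 11297 and 11396 CPM in siControl and 17576 and 16992 CPM in siHells. The summed level of 10 osteoclast markers was 7424 and 7463 CPM in siControl and 1350 and 1310 CPM in siHells, and all 10 fell. In a bulk sample, fewer cells of a type and less RNA per cell cannot be told apart.

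Of the cathepsins, 7 were higher in siHells, 2 were lower and 1 did not pass the test. All 10 had passed the low-count filter. Over all 15651 genes tested, 29.0% were higher and 29.5% lower, together 58.5%. Calls are from the edgeR quasi-likelihood test at an adjusted p below 0.05. The median log2 ratio of the 10 members was 0.38, against -0.0043 over all genes. The siControl and siHells libraries did not overlap in any of the 10 members, where 78.5% of all genes showed such a separation. The same 9 members were called, in the same directions, with each of 3 other scalings in place of TMM. Against a change of 1.5-fold rather than 0, the calls that held were those of Ctsk, Ctsh, Ctsb and Ctsl.

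**Figure D1:**
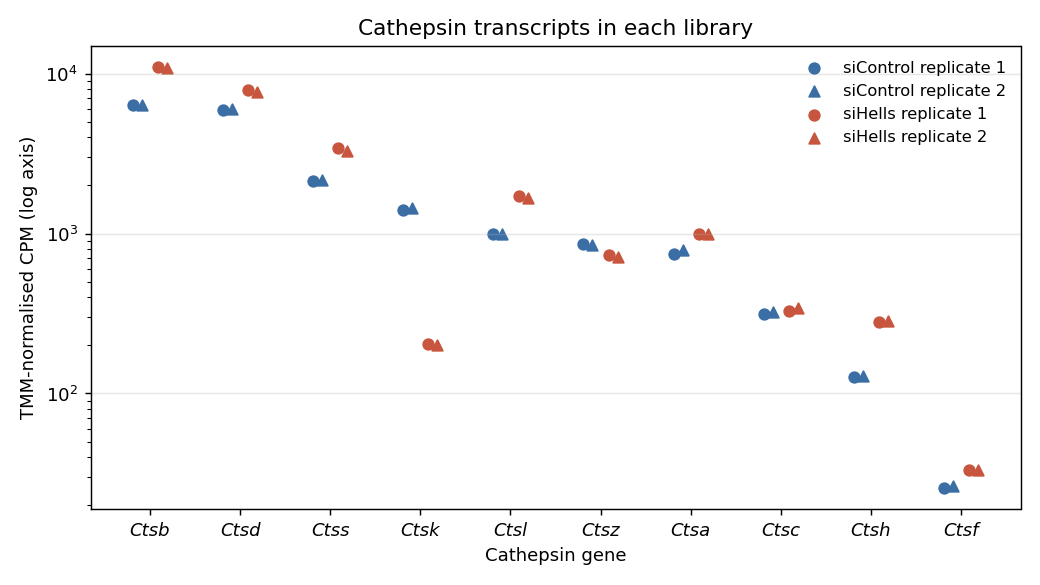
TMM-normalised CPM (log axis) of each cathepsin gene in the 4 libraries, circles for replicate 1 and triangles for replicate 2. Ctsk dropped from 1407 and 1439 CPM in siControl to 204 and 200 CPM in siHells, while Ctsb, at 6403 and 6327 CPM in siControl, reached 11008 and 10823 CPM.

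The one large fall was that of Ctsk, the collagen-degrading cathepsin K of osteoclasts. Its level was 1407 and 1439 CPM in the siControl libraries and 204 and 200 CPM in the siHells libraries. The log2 ratio was -2.82 (SE 0.029, adjusted p = 1.83e-18, edgeR quasi-likelihood test), or 7.04-fold. Both siHells libraries were far below both siControl libraries. Across all genes, 5.52% were called lower by at least 2-fold, and Ctsk was the only one of the 10 cathepsins among them. With any 1 library left out, its log2 ratio ran from -2.84 to -2.79.

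Ctsz, the carboxypeptidase cathepsin X, was the other member that fell, by far less. It had 858 and 851 CPM in siControl and 734 and 717 CPM in siHells, a log2 ratio of -0.24 (SE 0.027, adjusted p = 1.88e-06, edgeR). This fall was 1.18-fold. The group means, 855 CPM in siControl and 725 CPM in siHells, lay further apart than the libraries of a group. That spread was 4.30 CPM (SD, n = 2) in siControl and 12.0 CPM in siHells.

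Ctsh, an aminopeptidase, showed the largest rise among the cathepsins. Its level was 126 and 129 CPM in siControl and 278 and 282 CPM in siHells, for a log2 ratio of 1.13 (SE 0.034, adjusted p = 2.22e-13, edgeR). It was the only cathepsin to rise by at least 2-fold, a change called for 6.75% of all genes.

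Ctsb, Ctsl and Ctss, which like Ctsk are endopeptidases of the papain family, also rose. Ctsb had 6403 and 6327 CPM in siControl and 11008 and 10823 CPM in siHells. Its log2 ratio of 0.78 (SE 0.021, adjusted p = 9.50e-14, edgeR) equals 1.71-fold. For Ctsl the levels were 988 and 997 CPM in siControl and 1713 and 1674 CPM in siHells, a rise of 0.77 on the log2 scale (SE 0.026, adjusted p = 8.79e-13, edgeR).

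The rises of Ctsb and Ctsl were alike in size. Within a library, the ratio of Ctsb to Ctsl in CPM per kilobase was 6.95 and 6.80 in siControl and 6.89 and 6.93 in siHells, so the groups overlapped. Ctss, which works over a wider pH range than most cathepsins and is known for trimming the invariant chain of MHC class II, stood at 2136 and 2169 CPM in siControl and at 3410 and 3279 CPM in siHells. Its log2 ratio was 0.64 (SE 0.026, adjusted p = 8.81e-12, edgeR).

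Smaller rises, close to 1.3-fold, were found for cathepsins of 3 kinds. Ctsd, the aspartic protease, had 5943 and 6000 CPM in siControl and 7890 and 7720 CPM in siHells (log2 ratio 0.39, SE 0.022, adjusted p = 5.69e-10, edgeR). Ctsa, which besides its own peptidase activity protects the glycosidases Glb1 and Neu1 in a complex, had 748 and 790 CPM against 999 and 992 CPM (0.37, SE 0.030, adjusted p = 3.28e-08). Ctsf, a cysteine protease and the least abundant of the 10, had 25.6 and 26.4 CPM against 33.2 and 33.3 CPM (0.36, SE 0.059, adjusted p = 9.89e-05). The groups did not overlap in any of the 3 genes.

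Ctsc, the dipeptidyl peptidase that activates the serine proteases of leukocyte granules, did not pass the test. Its levels were 312 and 323 CPM in siControl and 326 and 341 CPM in siHells. The log2 ratio was 0.07 (SE 0.033, adjusted p = 0.0791, edgeR). It passed the threshold without siHells replicate 1 (0.11, adjusted p = 0.00493) and was -0.0017 with library totals in place of TMM. The serine proteases it activates were low in these cells. Of 10 such genes listed, 3 were tested. They were Elane (log2 ratio 0.21, adjusted p = 0.0984, edgeR), Prtn3 (0.13, 0.429) and Ctsg (0.10, 0.64), which also missed the threshold with DESeq2 and limma voom, and their summed level was 18.1 and 15.4 CPM in siControl and 19.0 and 18.5 CPM in siHells.

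**Figure D2:**
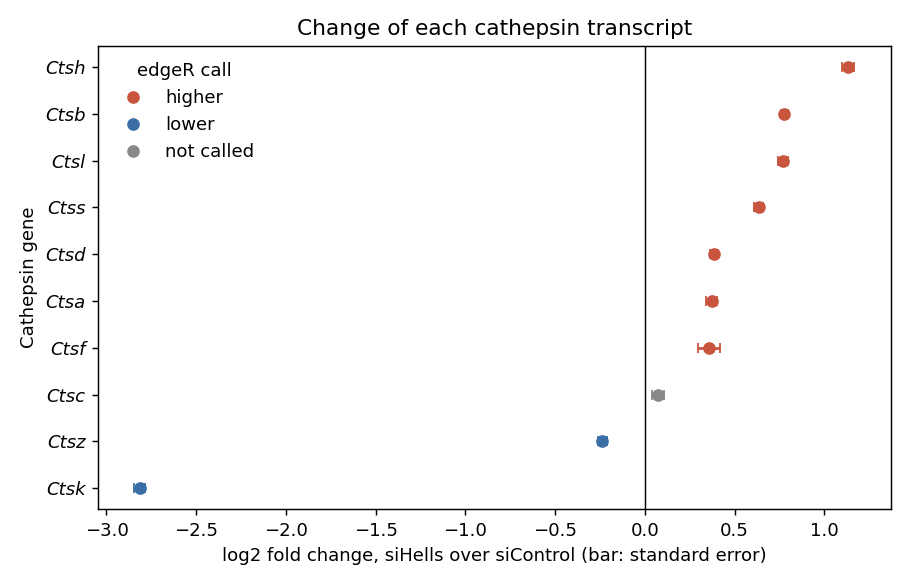
Log2 ratio of each cathepsin (siHells over siControl) with its standard error, coloured by the edgeR call. Ctsk stands apart at -2.82, Ctsz lies at -0.24, and the 7 members that rose span 0.36 to 1.13.

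The cathepsins together took a larger part of each siHells library than of each siControl library. They held 1.95% of all counts in each siControl library and 2.59% and 2.54% in the siHells libraries. To compare genes with each other, CPM was divided by the total exon length of each gene in the GENCODE M21 annotation. On that scale Ctsd was the most abundant cathepsin in both groups, at 2540 ± 17.1 CPM per kilobase in siControl and 3320 ± 51.0 in siHells (SD, n = 2 each), rank 5 among 14582 genes in both. Ctss followed, at 1585 ± 16.9 in siControl and 2463 ± 68.3 in siHells. Next came Ctsb, at 1052 ± 8.94 and 1804 ± 21.6 CPM per kilobase.

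Ctsk, at 941 ± 15.3 CPM per kilobase in siControl, was 4th among the cathepsins and 22nd among all genes. In siHells it was at 134 ± 2.03 CPM per kilobase, 7th among the cathepsins and 293rd among all genes. Below it in siControl came Ctsz (593 ± 2.99), Ctsa (163 ± 6.24), Ctsl (153 ± 1.0), Ctsc (54.6 ± 1.33), Ctsh (28.3 ± 0.328) and Ctsf (5.16 ± 0.120). In siHells the order after Ctsb was Ctsz (503 ± 8.33), Ctsl (261 ± 4.22), Ctsa (211 ± 0.966), Ctsk, Ctsh (62.2 ± 0.656), Ctsc (57.4 ± 1.83) and Ctsf (6.60 ± 0.00896). Libraries of neighbours in this order did not overlap in either group. The closest pairs were Ctsa and Ctsl in siControl (159 and 168 against 152 and 154) and Ctsh and Ctsc in siHells (61.8 and 62.7 against 56.1 and 58.7).

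The place of Ctsl depends on which transcript length is used, because its annotated exons add up to 6.49 kilobases while its shorter principal transcript has 1.97. By principal transcripts Ctsl had 504 ± 3.31 CPM per kilobase in siControl and 859 ± 13.9 in siHells, which placed it 6th and 4th. Ctsk was then 4th in siControl and 9th in siHells.

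Ctsk was also the member whose share of the pool changed most. It accounted for 13.1% and 13.3% of summed cathepsin CPM per kilobase in siControl and for 1.51% and 1.52% in siHells (11.4% and 11.6% against 1.27% and 1.27% by principal transcripts). Ctsb went from 14.9% and 14.6% to 20.4% and 20.5%, and Ctss from 22.2% and 22.3% to 28.1% and 27.7%. Ctsz went from 8.40% and 8.27% to 5.70% and 5.71%. The 8 cysteine cathepsins as a class held 62.1% and 62.0% in siControl and 60.1% and 59.9% in siHells. There were 0.879 and 0.910 units of Ctsk per unit of Ctsb in siControl and 0.0743 and 0.0740 in siHells, a ratio within a library that does not depend on the scaling between libraries.

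**Figure D3:**
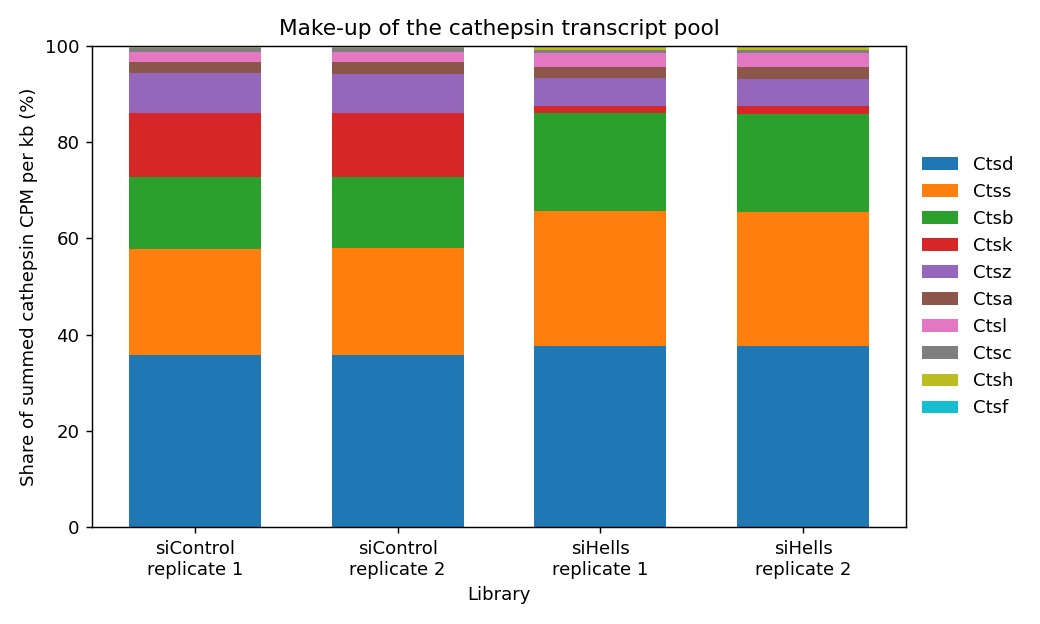
Share of each cathepsin in the summed cathepsin CPM per kilobase of exon, 1 stacked bar per library. The Ctsk segment shrinks from 13.1% and 13.3% to 1.51% and 1.52%, and the segments of Ctsb and Ctss widen.

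Ctsk and Ctss lie side by side on the plus strand of chromosome 3. Ctsk is at chr3:95499256-95509362 and Ctss at chr3:95526786-95556403 of GRCm38, with 17423 bases between them, yet they moved in opposite directions. The ratio of Ctsk to Ctss in CPM per kilobase was 0.591 and 0.596 in siControl and 0.0538 and 0.0548 in siHells. Arnt, the gene on the other side of Ctsk and a partner of hypoxia-inducible factors, rose from 63.5 ± 2.39 to 102 ± 1.99 CPM (SD, n = 2 each). Among the 9 tested protein-coding, lincRNA and antisense genes within 150000 bases of the pair, themselves included, Golph3l was the other gene called lower, with a log2 ratio of -0.12 (adjusted p = 0.0201, edgeR) that was not called without siControl replicate 1 (adjusted p = 0.152), without siControl replicate 2 (0.0525) or without siHells replicate 1 (0.0896). Adamtsl4, a secreted protein of the extracellular matrix, had the largest change there, a log2 ratio of 3.26 (adjusted p = 2.72e-15).

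**Figure D4:**
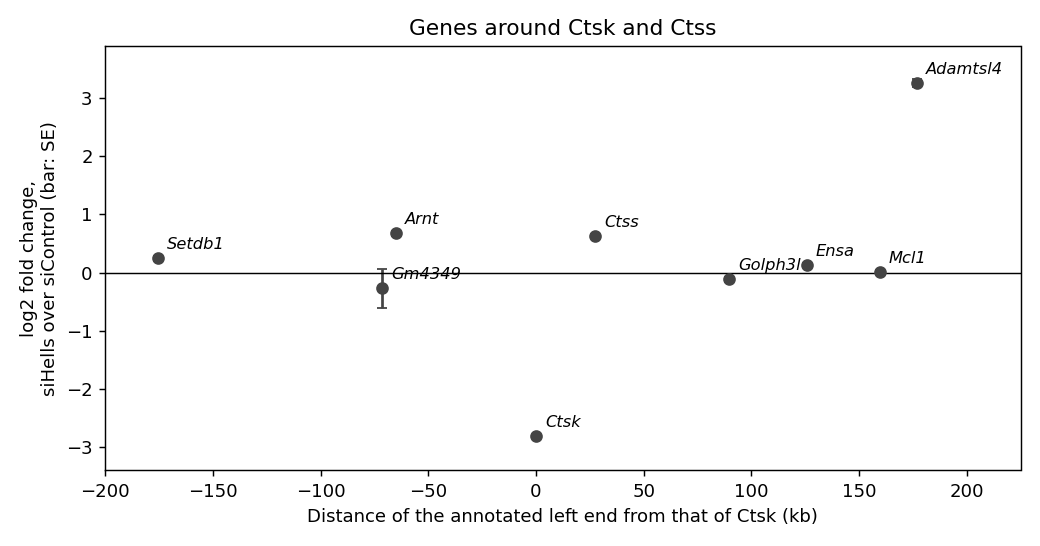
Log2 ratio (siHells over siControl, bar: SE) of tested genes against the distance of their annotated left end from that of Ctsk. Ctsk is at -2.82 and its neighbours Arnt and Ctss at 0.68 and 0.64.

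The starts of these neighbours are printed for the opposite change of their transcripts. Each sequence is the 250 bases before the RefSeq start on GRCm38.p6, plus strand, at chr3:95498960-95499209 for Ctsk and chr3:95526536-95526785 for Ctss. Capitals mark a match to any of 6 motifs searched on both strands, listed here with their names. The E-box core is CACGTG, and its longer forms GTCACGTG as well as TCACGTGA, which overlap it, are bound by the MiT family of lysosomal transcription factors. Of the others, TGANTCA is the AP-1 site, GAGGAAGT is a site of the PU.1 kind, and TATAAA is the TATA box.
Ctsk: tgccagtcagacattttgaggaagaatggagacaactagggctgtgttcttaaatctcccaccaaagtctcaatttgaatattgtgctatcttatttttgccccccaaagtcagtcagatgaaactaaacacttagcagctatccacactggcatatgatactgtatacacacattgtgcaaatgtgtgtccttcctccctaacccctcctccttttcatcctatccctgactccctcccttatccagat
Ctss: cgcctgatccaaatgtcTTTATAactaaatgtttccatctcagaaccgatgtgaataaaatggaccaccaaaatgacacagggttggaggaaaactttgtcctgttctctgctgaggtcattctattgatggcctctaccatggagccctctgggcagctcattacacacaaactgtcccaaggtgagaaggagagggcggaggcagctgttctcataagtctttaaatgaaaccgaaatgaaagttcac
The Ctsk window held none of the 6 motifs. The Ctss window held 1, a TATAAA match on the opposite strand that begins 233 bases before the start, and 12.4% of the 32851 windows of this kind in the RefSeq table hold that motif. GC content was 43.2% for Ctsk and 44.8% for Ctss, against a median of 52.4% over all windows.

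RefSeq windows were matched for 8 of the 10 cathepsins. Ctsb and Ctsh had no window and were not searched. The palindrome TCACGTGA was found in those of Ctsa and Ctsd, which both rose, and in 0.785% of all windows. The 30 bases around it are shown with the motif in capitals, at chr2:164833743-164833772 on the plus strand for Ctsa, where it begins 13 bases before one of 2 RefSeq starts, and at chr7:142387908-142387937 on the minus strand for Ctsd, 99 bases before the start.
Ctsa: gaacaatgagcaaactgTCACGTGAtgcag
Ctsd: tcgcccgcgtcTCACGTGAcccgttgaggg
The core CACGTG was found in the windows of Ctsa, Ctsd, Ctsf and Ctsl, and in 6.02% of all windows. These 4 genes rose. Of the other members with a window, which lacked the core, Ctss also rose, Ctsk and Ctsz fell and Ctsc was not called. By GENCODE coordinates, the Ctsl window, this Ctsa window and the TCACGTGA stretch of Ctsd lie inside the gene rather than before it. GAGGAAGT was found for Ctsc and TGANTCA for none of the 8 members searched, where 2.44% and 6.75% of all windows hold them. A match is a run of letters, not a measured binding site.

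The genes that code for factors acting on lysosomal and osteoclast genes went mostly down. Of 10 listed, 7 fell, 2 rose and 1 was not called, with a median log2 ratio of -0.51. Of the MiT family, which binds E-boxes of lysosomal genes, Mitf fell from 119 and 112 CPM to 75.5 and 78.2 CPM and Tfeb from 46.3 and 45.1 CPM to 34.8 and 33.1 CPM, whereas Tfe3 rose from 109 and 110 CPM to 153 and 145 CPM. Tfec, also of this family, had a log2 ratio of 0.12 with an adjusted p = 0.0476 (edgeR), and the call was lost in 9 of 15 alternatives, among them without siControl replicate 2 (adjusted p = 0.32) and without siHells replicate 1 (0.116). Among factors of osteoclast formation, Prdm1, a repressor, fell 4.25-fold and Fosl2, of the AP-1 family, 2.72-fold. Nfatc1, which drives Ctsk transcription, fell 1.93-fold, from 339 and 338 CPM to 176 and 175 CPM.

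Genes with expression closest to that of Ctsk were found by the distance between log2 CPM profiles over the 4 libraries, each centred on its own mean, among 5760 genes whose mean log2 CPM was 5 or more. They were Akap6, an anchor of protein kinase A, Fam102a, Coq8a, an atypical kinase of coenzyme Q synthesis, Arsb, a lysosomal sulfatase, and Hnmt, which methylates histamine. Distances ran from 0.0657 for Akap6 to 0.433 for Hnmt. Their log2 ratios lay between -2.87 and -2.40. With 4 libraries in 2 groups, such likeness amounts to a fall of like size.

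Inhibitors of the cathepsins went both ways. Of 15 listed genes 6 were tested, of which 3 rose and 2 fell. Cstb, the cytosolic stefin B, fell 1.66-fold, from 448 CPM in both siControl libraries to 274 and 264 CPM in siHells. Cst7, cystatin F, a lysosomal inhibitor of cathepsin C among others, was low and fell 4.59-fold, from 5.02 and 5.92 CPM to 0.793 and 1.58 CPM. Cst3, the secreted cystatin C, was 748 and 704 CPM in siControl and 789 and 773 CPM in siHells, a log2 ratio of 0.11 (adjusted p = 0.00922, edgeR) that was not called with upper-quartile scaling (adjusted p = 0.0676), with library totals (0.397) or without siControl replicate 2 (0.14).

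The largest changes among the inhibitors were in Ctla2a and Ctla2b, which encode small proteins similar to a cathepsin propeptide. Ctla2b rose 8.39-fold, from 24.5 and 23.9 CPM to 201 and 206 CPM. Ctla2a had 1.16 and 1.52 CPM in siControl and 7.88 and 6.54 CPM in siHells. The 2 genes are close copies among which reads may be split. Cst6, the remaining member tested, had 4 to 12 counts per library and was not called. Per unit of Ctsb, Cstb was present at 0.702 and 0.711 in siControl and at 0.250 and 0.245 in siHells, in CPM per kilobase.

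**Figure D5:**
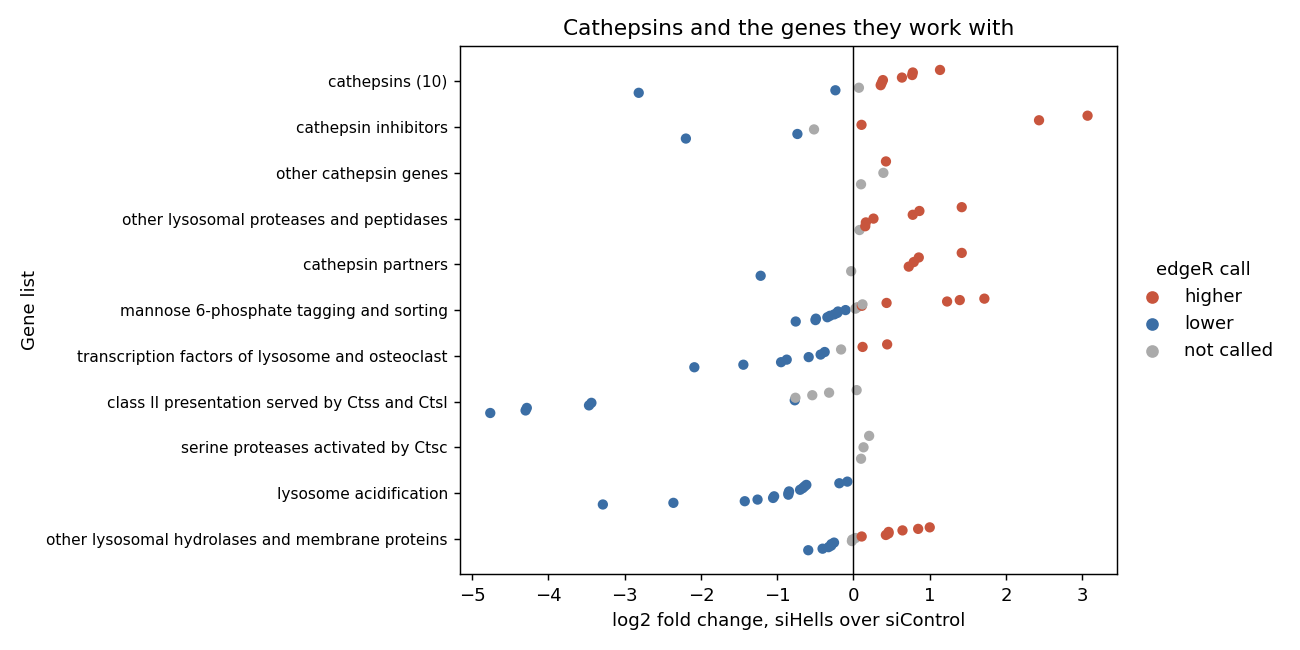
Log2 ratios (siHells over siControl) of the 10 cathepsins and of the gene lists described beside them, 1 point per tested gene, coloured by the edgeR call. All 15 listed acidification genes lie below 0, and 6 of the 7 other lysosomal proteases and peptidases listed were called higher.

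Partners that process or accompany cathepsins mostly rose with them. Of 6 listed, 4 rose, 1 fell and 1 was not called, with a median log2 ratio of 0.76. Lgmn, the asparaginyl endopeptidase that cuts several cathepsins into their mature chains, rose 2.68-fold, from 778 and 787 CPM to 2140 and 2047 CPM. Psap, the saposin precursor that binds procathepsin D, rose 1.81-fold, from 8495 and 8682 CPM to 15594 and 15509 CPM. Grn, progranulin, rose 1.73-fold. Glb1, which the product of Ctsa protects, rose 1.65-fold, while its other partner Neu1 had a log2 ratio of -0.03 (adjusted p = 0.545, edgeR). Ifi30, a lysosomal thiol reductase of antigen processing, fell 2.32-fold, from 690 and 709 CPM to 309 and 293 CPM.

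Other lysosomal peptidases moved the same way as most cathepsins, with 6 of 7 higher and 1 not called. Besides Lgmn, which is on both lists, Napsa, an aspartic protease, rose by 0.86 on the log2 scale, Cpq, a carboxypeptidase, by 0.78 and Scpep1, a serine carboxypeptidase, by 0.26. Prcp was the one not called (0.08, adjusted p = 0.119, edgeR). Of 13 further cathepsin genes, 3 were tested. Ctso rose from 53.6 and 55.9 CPM to 72.7 and 74.4 CPM, and Ctse and Ctsg, at up to 80 and 170 counts per library, were not called.

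The glycosidases, lipases and membrane proteins of the lysosome were split, with 7 of 16 higher, 6 lower and a median log2 ratio of 0.01. Man2b1, lysosomal alpha-mannosidase, rose 2.00-fold and Lamp1, the abundant membrane glycoprotein, 1.80-fold. Lipa, the acid lipase, fell by 0.59 on the log2 scale, and Hexa, a subunit of hexosaminidase, rose by 0.46.

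The listed genes of lysosome acidification all went down, 15 of 15, with a median log2 ratio of -0.85. Among them Atp6v0d2 is also 1 of the 10 osteoclast markers. Car2, the carbonic anhydrase of osteoclasts, fell 9.75-fold, the V-ATPase subunits Atp6v0d2 5.14-fold, Atp6v1d 2.68-fold and Atp6v1b2 2.39-fold. The smallest falls were those of Ostm1, the partner of the chloride transporter Clcn7, with a log2 ratio of -0.19 (adjusted p = 0.00157, edgeR), and of Atp6v0d1, with -0.08 (adjusted p = 0.0481). Atp6v0d1 lost the call without siControl replicate 1, without siControl replicate 2 and without siHells replicate 1 (adjusted p = 0.165, 0.200 and 0.118). Its adjusted p was 0.0698 with the replicate number as a block (edgeR) and 0.124 with DESeq2.

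The machinery that tags cathepsins and sorts them to the lysosome went both ways. Of 17 genes 5 rose, 9 fell and 3 were not called, with a median log2 ratio of -0.10. Both mannose 6-phosphate receptors fell 1.41-fold, M6pr from 690 and 693 CPM to 496 and 487 CPM and Igf2r from 434 and 439 CPM to 311 and 307 CPM. Gnptab, the catalytic subunit of the enzyme that adds the tag, fell 1.27-fold, and the adaptor Gga2 1.69-fold. The 5 that rose were Ap1b1, a subunit of the clathrin adaptor AP-1 (2.63-fold), the sorting receptors Sorl1 (3.29-fold) and Sort1 (2.34-fold), Gnptg, a further subunit of the tagging enzyme (log2 ratio 0.43), and Gga1 (0.11, adjusted p = 0.0279, edgeR), whose call was lost in 8 of 15 alternatives, among them without siControl replicate 1 (adjusted p = 0.186), without siControl replicate 2 (0.0829) and without siHells replicate 2 (0.0716).

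Of 10 genes of class II presentation, which Ctss serves by trimming the invariant chain, 6 fell and 4 were not called, with a median log2 ratio of -2.10. Cd74, the invariant chain itself, fell 10.8-fold and averaged 262 ± 6.05 CPM in siControl and 24.2 ± 1.08 CPM in siHells (SD, n = 2 each), while Ctss was higher in the same libraries. H2-Eb1 and H2-Aa, which encode class II chains, had log2 ratios of -4.76 and -4.28.

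Markers of other cells also differed between the groups. Of 10 stromal markers 9 were tested, 7 were higher and 1, Col3a1, was lower, and their summed level was 1052 and 1079 CPM in siControl and 1875 and 1846 CPM in siHells. Of 9 neutrophil markers tested, 5 were lower (3 without siControl replicate 2 or without siHells replicate 2) and 1, Retnlg, higher, with sums of 485 and 492 CPM against 413 and 390 CPM. For dendritic cells, 5 of 7 markers were tested, Flt3 and Zbtb46 were higher and Itgax was lower, with sums of 18.4 and 19.5 CPM against 9.50 and 9.08 CPM. Itgax made up most of the siControl sums and went from 13.6 and 14.3 CPM to 1.11 and 0.634 CPM. The sum followed that gene and not the 2 that were higher. Of 8 T and NK cell markers 2 were tested, and Cd3e, Cd3d and Cd3g were among those not analysed. The 2 tested, Cd4 and Trac, were both lower, with sums of 75.7 and 70.9 CPM against 27.4 and 27.9 CPM. Nearly all of this was Cd4, at 73.7 and 68.3 CPM in siControl and 26.9 and 27.3 CPM in siHells. B cell and mast cell markers summed to at most 11.1 and 3.82 CPM in any library. The part of these cells in the cathepsin differences was not tested.

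Exons of 5 members overlap those of another annotated gene. Ctsd shares 34.4% of its exon bases with Gm49369 on the same strand, and Ctsl 26.8% with Gm47123 on the opposite strand and 6.09% with the pseudogene Gm49230 on its own strand, none of which was analysed here. Ctsa shares 10.5% with Pltp, whose level was 878 CPM in siControl and 801 CPM in siHells, and 6.87% with Neurl2 (16.1 and 7.67 CPM). Ctsb shares 12.8% with Fdft1, at 12.9 and 13.5 CPM. Ctsz shares 10 bases with Nelfcd. Pltp, Neurl2, Fdft1 and Nelfcd lie on the opposite strand, and the strand setting of the counting is not given in the sources used here.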

How the data were processed

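The deposited values are raw read counts by gene symbol, 4 libraries in 1 table. Tools named without roles in the submitters' processing notes are HISAT2 2.1.0, StringTie 2.1.3b, Trimmomatic 0.38, FastQC and edgeR, with genome mm10. The annotation and strand setting used are not given there. The lowest count in the table is 1, so genes with 0 reads in any library were not analysed here.

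Genes were filtered with filterByExpr (minimum count 10, minimum total 15; 15651 kept), scaled by TMM and tested with the edgeR 4.0.16 quasi-likelihood test (R 4.3.3, robust, group as the only term), with Benjamini-Hochberg adjustment over all genes. Members and lists were chosen with earlier results of these data known. Lists are described by counts and medians, with no set test. Named were all members, Hells, up to 4 genes per list with the smallest p, minority directions of 5 or fewer, and the 5 genes nearest to Ctsk; Nfatc1, Tfeb, Mitf, Cst6, Neu1, Prcp, Atp6v0d1, single genes not called, further list members and genes near or overlapping a member were chosen after their values were seen. Gene lengths and coordinates are from GENCODE M21 (93.2% of genes matched), promoter sequences from RefSeq (GRCm38.p6). DESeq2 1.42.0 and limma 3.58.1 served as alternatives. The spread between replicates exceeded counting noise (chi-square per gene 3.59 in siControl and 6.69 in siHells). This does not settle whether they came from separate cultures or separately made libraries. In counts simulated over 15651 genes, only 49 or 50 tested genes were changed at each size. The test recovered 48.0% of 1.2-fold, 69.4% of 1.5-fold, 87.8% of 2-fold and 98.0% of 4-fold changes, with 5 false calls among 155. In the data 58.5% of genes were called. With far fewer changed genes the adjusted p is harder to pass, so these rates do not carry over to this comparison.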

Additional observations from a re-analysis of the deposited data

How the results depend on the processing

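The 9 called cathepsins kept their direction and their call with 3 other scalings, 2 other filters, the DESeq2 Wald test, limma voom, the legacy quasi-likelihood fit, an adjusted p threshold of 0.01 and each library left out in turn (9 to 10 called, Ctsc being the tenth). With the replicate number as a block (replicate block) 9 were called, 7 higher and 2 lower, and 9087 genes over all. Among the genes of the lists and those near Ctsk, the block ended the call of Atp6v0d1 and no other. The numbers are not stated to mark pairs, and deviations of same-numbered libraries correlated at 0.0438 over 11818 genes. Against a 1.5-fold change, 4 cathepsins were called, 3 higher and 1 lower, and over all genes 2357, of which 1261 were higher and 1096 lower. There Ctss had an adjusted p = 0.0560, and a threshold on size is by construction harder to pass. Scaling by library totals moved the median of all genes from -0.0043 to -0.078. By longest transcripts, 2 cathepsins left their place in the order of levels in siHells. By principal transcripts, an alternative added after seeing the data, 2 did so in siControl and 5 in siHells. In the gene lists, the 1.5-fold test left 3 higher and 1 lower for mannose 6-phosphate sorting, 3 higher for the other peptidases, 0 higher and 4 lower for the transcription factors 2 higher and 0 lower for the other lysosomal proteins, 4 higher and 0 lower for the stromal markers, and 0 higher and 2 lower for the neutrophil markers. With library totals, 2 in place of 1 of the cathepsin partners were lower, and 1 of the transcription factors in place of 2 was higher under 8 alternatives, library totals among them. Of the neutrophil markers, 3 in place of 5 were lower with the DESeq2 Wald test, at an adjusted p below 0.01, without siControl replicate 2 and without siHells replicate 2. With 2 libraries a group, small changes such as that of Ctsc are at the limit of what the test can resolve.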
